A study of Mus musculus with 2 samples.

Results

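Titin (Ttn), nebulin (Neb), the slow and fast skeletal myosin-binding proteins C (Mybpc1 and Mybpc2) and the myomesins (Myom1, Myom2 and Myom3) form a set of 7 genes for long structural proteins of the sarcomere, out of 21911 protein-coding genes examined. They were picked by gene symbol, and the sites assigned to them were the DNase-seq peaks within 1 kb of an annotated start (promoter sites), the other peaks inside the gene (gene-body sites) and the remaining peaks within 50 kb of a start (distal sites). Peaks of both libraries that overlapped by at least 1 base were merged, which gave 90 regions at the 7 loci among 103684 in the genome. Of the 90 regions, 57 had a peak in both libraries, 29 in replicate 1 alone and 4 in replicate 2 alone.

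The sarcomere is the repeating contractile unit of striated muscle. Titin runs from the Z-disc, where thin filaments are anchored, to the M-band in the middle of the thick filament, and acts as a spring and a scaffold, while nebulin lies along the thin filament and stabilizes it. Myosin-binding proteins C sit on the thick filament and modulate its motors, and the myomesins cross-link thick filaments at the M-band. DNase I cuts DNA that is not packed tightly around nucleosomes, so that clusters of cuts (peaks) mark open chromatin, and short stretches inside a peak that are spared from cutting (footprints) are taken as bases shielded by protein.

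The samples were gastrocnemius, the large calf muscle, from male B6CASTF1/J mice, a hybrid of a laboratory strain and a wild-derived strain, at the age of 14 days. There was 1 group with 2 libraries, replicate 1 and replicate 2, and no treatment or second genotype. The labels number the libraries as biological replicates 1 and 2, each with technical replicate number 1. Both libraries name the same donor entry and carry the words 3x Males without explanation. The number of animals in each library is therefore not known, and the spread between the libraries may be partly technical. Replicate 1 was sequenced on 2 instrument models per its label, and for replicate 2 the labels used here give none, so instrument and replicate cannot be told apart. The peak lists do not separate the parental alleles.

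All values are given in the order replicate 1 and replicate 2. Peak signals are the values deposited by the authors, whose scale no source used here states. Every signal was a whole multiple of 0.00557 in replicate 1 and of 0.00459 in replicate 2, within 0.05 of a step, and the lowest peaks had 10 and 8 steps. What 1 step counts is not known, so levels were ranked within each library as percentiles. Each library had a strict list, with 82498 and 88198 peaks, and a permissive list, with 138117 and 139545. At the 7 loci all strict peaks held a base with a false discovery rate of 0.001 or less, against 68.1% and 62.1% of the permissive peaks, and the strict list was used unless stated. The tissue label was checked on marker genes: all 12 skeletal muscle markers had a promoter peak in both libraries, with summed signals of 84.4 and 28.5, against 1 of 6 heart markers, with 0.697 and 0.642. Markers of other cells of the tissue were also open, namely 4 of 4 for smooth muscle and pericytes, 3 of 4 for fibroblasts, 2 of 3 for Schwann cells, 2 of 4 for endothelium and 1 of 4 for macrophages and leukocytes. Their summed signals, in that order, were 10.6 and 7.92, 12.4 and 8.77, 18.0 and 11.2, 2.74 and 3.08, and 0.764 and 0.762. The lists differ in length, so the sums do not compare signal per gene. No satellite cell marker out of 3 was open in both libraries, and of markers from outside the muscle 1 of 3 for hepatocytes and 0 of 2 for keratinocytes were. Over all protein-coding genes 61.7% had a promoter peak in both libraries. Such small counts for other cells, most of them near or below that share, do not tell which cell types were present. In a tissue of several cell types, a site open in fewer cells and a site cut less often per cell cannot be told apart.

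The sequences below are those of sites on which the results turn, read 5′ to 3′ on the strand of the gene from the RefSeq genome GRCm38.p6 (mm10). The mice were hybrids, and whether both parental alleles carry these bases, or the motifs named below, was not examined. Capitals mark bases that lay in footprints of both libraries, and positions within a sequence count from 1 at its 5′ end. Exonic bases were left off where a site reached into an exon. The first set is for the giant proteins: the stretch upstream of the first Ttn start (chr2:76982558-76982660, minus strand), the site upstream of the Ttn-204 start (chr2:76980321-76980540, minus), a site in intron 43 of Ttn that was among the few with more signal in replicate 2 (chr2:76929821-76930000, minus), the site at the open Neb start (chr2:52335181-52335360, minus) and the strongest Neb site away from the starts (chr2:52371181-52371340, minus).
Ttn first start: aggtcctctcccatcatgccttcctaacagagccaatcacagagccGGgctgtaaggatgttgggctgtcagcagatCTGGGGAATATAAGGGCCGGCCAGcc
Ttn-204 start: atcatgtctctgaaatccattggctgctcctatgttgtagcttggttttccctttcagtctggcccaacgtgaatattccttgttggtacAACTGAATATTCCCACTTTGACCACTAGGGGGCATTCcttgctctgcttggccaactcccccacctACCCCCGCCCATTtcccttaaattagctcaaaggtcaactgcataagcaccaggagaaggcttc
Ttn intron 43: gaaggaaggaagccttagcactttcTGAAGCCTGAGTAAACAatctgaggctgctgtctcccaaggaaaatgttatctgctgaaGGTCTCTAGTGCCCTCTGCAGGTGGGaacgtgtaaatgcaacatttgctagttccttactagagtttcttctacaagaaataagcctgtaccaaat
Neb-203 start: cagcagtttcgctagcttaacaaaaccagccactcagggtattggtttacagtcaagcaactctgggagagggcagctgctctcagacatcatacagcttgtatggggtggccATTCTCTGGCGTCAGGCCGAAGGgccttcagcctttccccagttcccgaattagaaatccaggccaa
Neb upstream site: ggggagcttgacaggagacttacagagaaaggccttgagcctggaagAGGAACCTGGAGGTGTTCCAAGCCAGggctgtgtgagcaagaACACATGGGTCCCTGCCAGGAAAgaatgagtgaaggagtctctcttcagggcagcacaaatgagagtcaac

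The second set is for the thick-filament and M-band proteins: the strongest site at Mybpc1, in intron 1 (chr10:88591221-88591420, minus strand), the strongest site of the Mybpc2 promoter (chr7:44525201-44525400, minus), the only promoter site of Myom2 (chr8:15056921-15057120, plus), the site closest to the start of Myom3 (chr4:135761041-135761280, plus) and the intronic stretch of the strongest site at Myom3 (chr4:135801561-135801715, plus).
Mybpc1 intron 1: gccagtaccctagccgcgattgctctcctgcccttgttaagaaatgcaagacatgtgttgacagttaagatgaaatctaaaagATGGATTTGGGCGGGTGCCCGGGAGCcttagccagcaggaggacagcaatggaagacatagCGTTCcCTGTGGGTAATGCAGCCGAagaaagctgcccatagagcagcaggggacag
Mybpc2 promoter: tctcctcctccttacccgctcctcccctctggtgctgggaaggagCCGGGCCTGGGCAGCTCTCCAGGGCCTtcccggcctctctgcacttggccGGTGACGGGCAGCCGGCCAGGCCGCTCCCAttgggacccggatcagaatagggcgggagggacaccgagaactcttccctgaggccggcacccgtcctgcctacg
Myom2 promoter: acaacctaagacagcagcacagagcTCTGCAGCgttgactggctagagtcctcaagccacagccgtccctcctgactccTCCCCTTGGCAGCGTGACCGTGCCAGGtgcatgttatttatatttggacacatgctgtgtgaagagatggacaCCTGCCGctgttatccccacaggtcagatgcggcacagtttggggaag
Myom3 intron 1: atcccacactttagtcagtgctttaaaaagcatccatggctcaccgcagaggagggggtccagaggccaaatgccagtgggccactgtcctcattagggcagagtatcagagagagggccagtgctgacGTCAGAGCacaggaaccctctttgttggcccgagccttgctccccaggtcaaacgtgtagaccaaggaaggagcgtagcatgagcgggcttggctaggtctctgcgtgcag
Myom3 exon 28 edge: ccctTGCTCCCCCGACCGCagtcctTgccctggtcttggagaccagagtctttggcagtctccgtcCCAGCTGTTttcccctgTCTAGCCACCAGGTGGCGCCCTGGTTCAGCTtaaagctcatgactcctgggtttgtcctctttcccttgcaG

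Promoters of 6 of the 7 genes were open in both libraries, against 61.7% of all protein-coding genes and 77.2% of the 9333 genes at least as long as the shortest of the 7 (23.0 kb). Among all genes, closed ones included, the open promoters ranked near the middle apart from that of Mybpc2. The rank of Mybpc2 rested on a site 645 bases upstream of its start. Among promoters open in both libraries the others were weak, all below the medians of 6.15 and 3.51. In replicate 2 all of these were below the 25th percentile of open promoters, 1.74. In replicate 1 Neb and Myom1 were below it, at 2.92. Myom3 had no promoter peak in either strict list. Ranked among all genes by the strongest promoter peak, the 7 had a median percentile of 50.1, and the median over all genes was also 50.1. No test was run on these counts, because the design holds a single group and the genes were not a random draw.

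**Figure D1:**
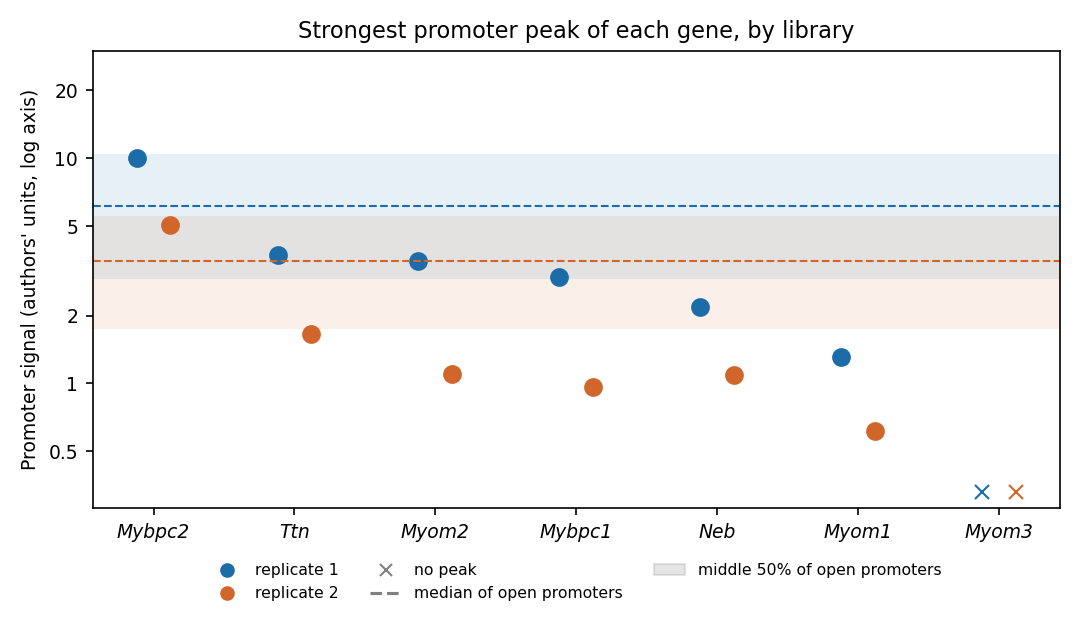
The strongest promoter peak of each of the 7 genes is plotted on a log axis in the authors' signal units, blue for replicate 1 and orange for replicate 2, with crosses where no peak was listed. Dashed lines and bands give the median and the middle 50% of all promoters open in both libraries; Mybpc2, through its site 645 bases upstream, is the only one of the 7 above the medians of 6.15 and 3.51.

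Among the giant proteins, the strongest promoter peak of Ttn had a signal of 3.73 in replicate 1 and 1.66 in replicate 2, the 55.5th percentile of genes (± 3.59, SD, n = 2 libraries). That of Neb had 2.19 and 1.09, at percentile 48.6 ± 1.71. Both were below the median of open promoters, 6.15 and 3.51, in each library. The slow isoform gene Mybpc1 had 2.98 and 0.963, at percentile 50.1 ± 5.68, whereas the fast isoform gene Mybpc2 had 9.98 and 5.05, at percentile 82.4 ± 1.23. With windows of 1 kb the promoter of Mybpc2 was thus above that of Mybpc1 in both libraries, by more than the spread of either. With a window of 250 bases, which leaves out the site 645 bases upstream, Mybpc2 had 4.43 and 1.40 and fell to percentile 58.2, below the medians of open promoters and close to Mybpc1 at 52.4. Of the myomesins, Myom2, the gene for M-protein, had 3.49 and 1.10 (52.2 ± 6.59), and Myom1, expressed in all striated muscle, had 1.30 and 0.615 (42.7 ± 2.11). Myom3 stood at percentile 18.3, the rank shared by all genes without a promoter peak. In the permissive list it had a peak of 0.719 in replicate 1 and none in replicate 2. The order by mean percentile was therefore Mybpc2, Ttn, Myom2, Mybpc1, Neb, Myom1 and Myom3, and the 4 genes from Ttn to Neb differed by amounts close to the spread between libraries.

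The Ttn gene (chr2:76703980-76982547, minus strand, 279 kb, 347 exons in its longest transcript) had 3 promoter sites, each found in both libraries. The first lay at the shared start of the long transcripts Ttn-201, Ttn-202 and Ttn-203 and next to that of Ttn-205, with its middle 14 bases from the nearest start. The others, both in intron 1, had signals of 1.59 and 0.963 (chr2:76981801-76982000) and of 1.58 and 1.25 (at Ttn-204). The 3 sites thus spread over about the first 2 kb of the gene, and the strongest was the outermost. The internal start of Ttn-225 (chr2:76836814) had no peak in any of the 4 lists. Inside the gene, 3 sites were found in both libraries. One, over the edge of coding exon 8, had 1.83 and 1.67 (chr2:76969021-76969220). One in intron 43 had 1.16 and 1.98, and one in intron 222 had 1.51 and 0.784 (chr2:76807347-76807620). None of these exceeded the promoter in replicate 1, while in replicate 2 the sites at exon 8 and in intron 43 were at or above it. The only distal site in both libraries lay 16.0 kb upstream (chr2:76998421-76998684), with 2.11 and 0.583, the largest excess of replicate 1 among all 57 shared regions.

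Neb (chr2:52136647-52378474, minus strand, 242 kb, 157 exons) has 3 starts in the basic gene set, and peaks lay at only one of them. The start of Neb-203 (chr2:52335134) had a pair of sites, with 2.19 and 1.09 at a distance of 137 bases and 2.08 and 0.789 at 637 bases (chr2:52335681-52335860). The starts of the longest transcript, Neb-202 (chr2:52338798), and of Neb-201 (chr2:52223737) had no peak in either list of either library. The open chromatin at the 5′ end of Neb was therefore about 3 kb inside the longest annotated transcript rather than at its first exon. In the gene body, 2 sites were found in both libraries, 0.881 and 0.633 over coding exon 50 (chr2:52271043-52271180) and 1.80 and 1.59 at chr2:52371181-52371340. The latter lies inside the gene record but 32.5 kb upstream of the nearest start of the basic set, and its footprints of both libraries covered 49 of 160 bases. A distal site 47.5 kb upstream (chr2:52386181-52386360) had 0.881 and 0.372.

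Mybpc1 (chr10:88518279-88605152, minus strand, 86.9 kb, 29 exons) had 1 promoter site, 1 gene-body site and 1 distal site in both libraries, the fewest of the 7. Its gene-body site, in intron 1 and 13.7 kb from the nearest start, had a signal of 4.82 and 2.23. This was above the promoter (2.98 and 0.963) in both libraries, and the site ranked at the 87.7th and 81.4th percentile of all peaks. The distal site lay 40.4 kb upstream (chr10:88645461-88645700), with 1.82 and 0.624. Mybpc1 and Myom1 were the genes with an open promoter at which an intronic site exceeded the promoter in both libraries.

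Mybpc2 (chr7:44501699-44524656, minus strand, 23.0 kb, 28 exons) is the shortest gene of the set. Its strongest promoter site lay 645 bases upstream of the single start, and a second one, with 4.43 and 1.40, lay over the start (chr7:44524561-44524840). In the gene body, 1.93 and 1.45 were measured over coding exon 4 (chr7:44521821-44522034) and 2.42 and 0.684 in intron 1 (chr7:44523081-44523420). It had 9 distal sites in both libraries, the 89.4th percentile of all genes, but 5 of them lay within 1 kb of starts of other genes. The strongest, with 16.7 and 10.5, was at the start of Pold1, a DNA polymerase subunit gene, 24.3 kb upstream. Next came sites at the starts of Nr1h2 (11.5 and 5.85) and of Emc10 and Fam71e1 (10.3 and 6.26). Of the 4 sites away from other starts, a pair 3.02 and 3.47 kb upstream had 2.89 and 1.67 (chr7:44527581-44527760) and 3.71 and 1.28 (chr7:44528001-44528240).

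Myom1 (chr17:71002633-71126856, plus strand, 124 kb, 38 exons) had its only promoter site at its first basic starts, chr17:71019383-71019580, with 1.30 and 0.615. A far stronger site at the edge of the gene record, chr17:71002481-71002700, had 21.9 and 8.47, at the 99.8th and 99.3rd percentile of all peaks. It lies 16.9 kb upstream of those starts, within 1 kb of starts of the myosin light chain genes Myl12a and Myl12b, and covers the start of the transcript Myom1-209 in the comprehensive gene set. Whether it belongs to Myom1 or to its neighbours cannot be told from these data. With it counted as a promoter, as the comprehensive set has it, the promoter of Myom1 would have the highest signal of the 7 in both libraries. In the body of Myom1 proper, a site in intron 5 (chr17:71038781-71039180) had 4.09 and 1.39, and one in intron 22 (chr17:71093721-71094140) had 1.59 and 0.729. Of 6 distal sites, 5 were at starts of Myl12a or Myl12b, with up to 7.22 and 3.89.

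Myom2 (chr8:15057653-15133541, plus strand, 75.9 kb, 37 exons) had its promoter site 632 bases upstream of its only basic start. With a promoter window of 250 bases it would count as closed, since no other strict peak lay near the start. Its body held 4 sites in both libraries, all intronic. They were in intron 1 with 2.96 and 0.963 (chr8:15059981-15060220), in intron 6 with 2.03 and 0.844 and with 2.12 and 0.826, and in intron 13 with 2.95 and 0.904 (chr8:15097061-15097280). These 4 were of similar strength in each library and all lay below the promoter. Of 4 distal sites, 3 lay at starts of other genes, and the remaining one, 44.5 kb upstream, had 2.74 and 1.00.

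Myom3 (chr4:135759715-135815564, plus strand, 55.9 kb, 37 exons), the myomesin gene linked to slow and intermediate fibres, lacked a promoter peak but had 7 gene-body sites in both libraries, the most of the set. The closest, in intron 1, had its middle 1446 bases downstream of the start, beyond the limit of 1 kb, with 1.16 and 0.505. The next, at coding exon 2, had 2.58 and 0.867 (chr4:135762581-135762820). Within intron 5 there were 2 sites, with 1.44 and 0.679 (chr4:135767064-135767240) and with 1.62 and 1.14 (chr4:135768901-135769120). Sites in intron 7 with 2.35 and 1.08 (chr4:135772781-135772980) and intron 24 with 1.29 and 0.638 (chr4:135798001-135798233) followed. The strongest, at the edge of coding exon 28 and 42.0 kb into the gene, had 3.87 and 4.31, at the 84.4th and 93.0th percentile of all peaks. It was the only one of the 7 with a higher signal in replicate 2 than in replicate 1 before any scaling. Of 7629 protein-coding genes without a promoter peak in either library, 55 (0.721%) had at least as many gene-body sites in both libraries. These genes were of any length, gene-body counts rise with length, and the share among closed genes of like length was not computed. Over all protein-coding genes of 50 to 100 kb, open or closed, the 90th percentile was 5 such sites. In the comprehensive gene set the short transcripts Myom3-203 and Myom3-202 start within 1 kb of the sites in intron 24 and at exon 28.

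**Figure D2:**
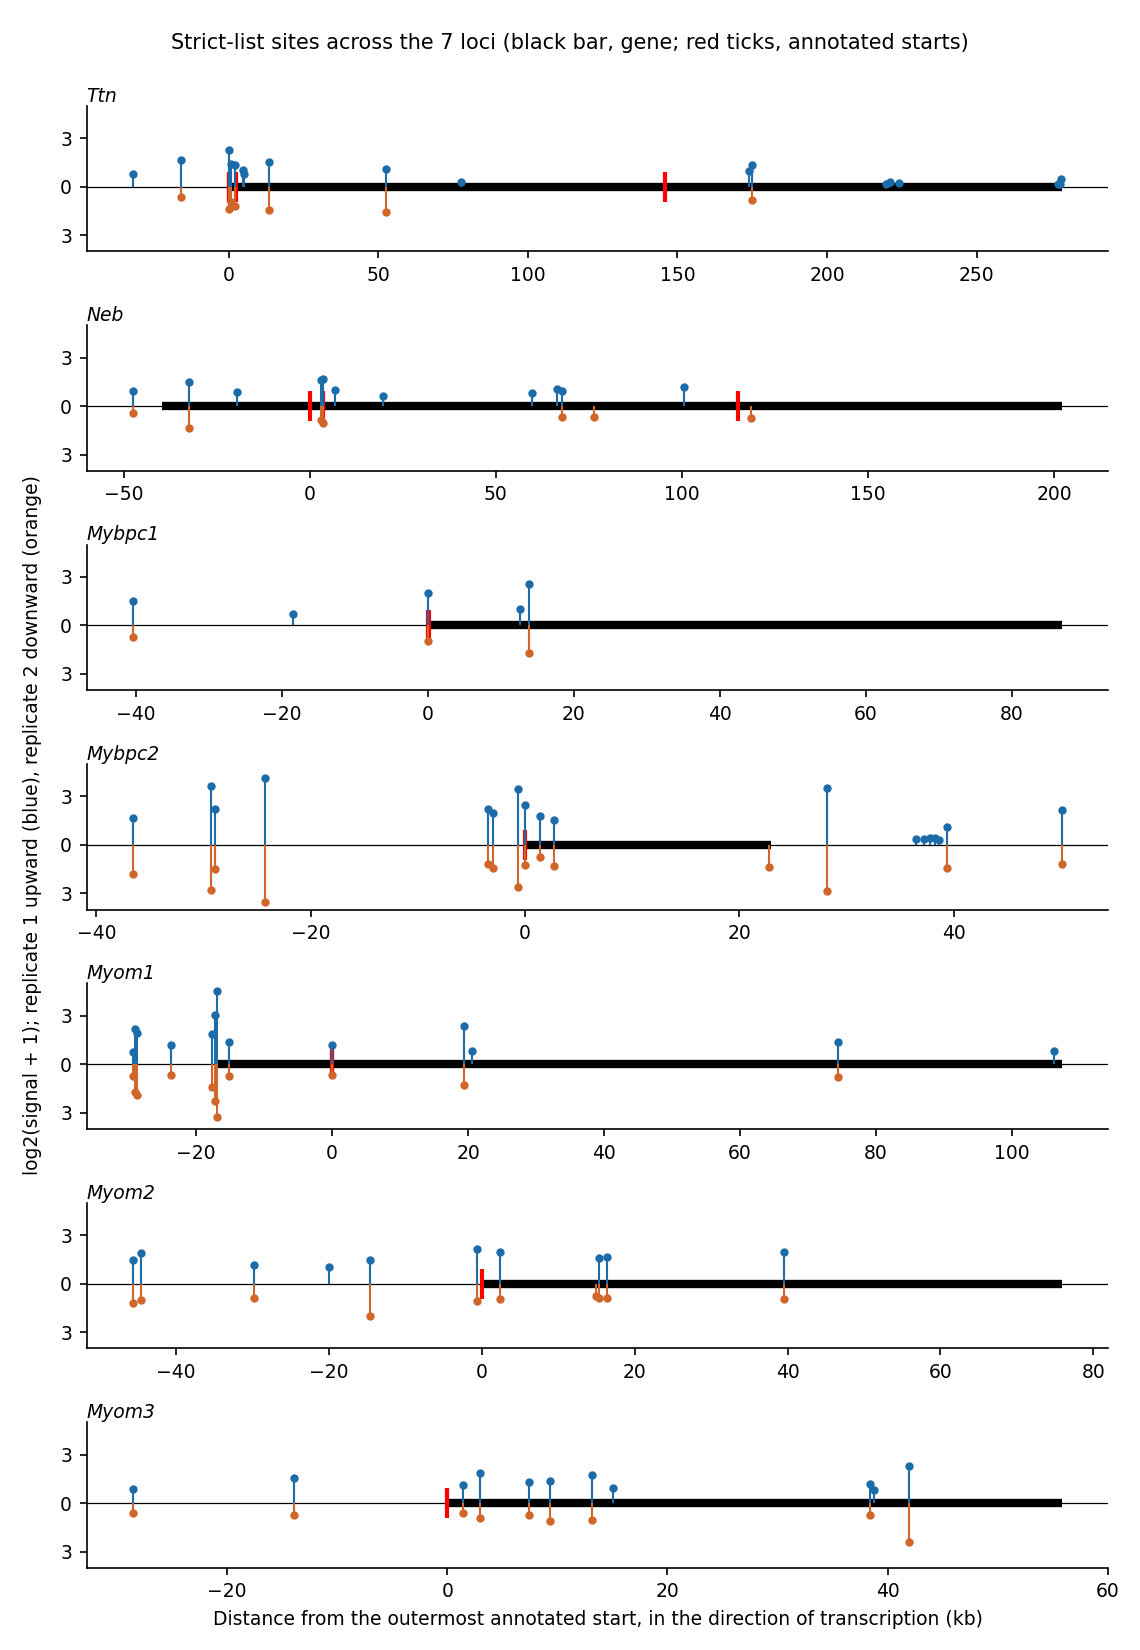
Sites of the strict lists are drawn by distance in kb from the outermost start of each gene in the basic set, with log2(signal + 1) upward for replicate 1 and downward for replicate 2. Black bars are genes and red ticks are annotated starts. Visible are the 5′ sites of Ttn, the strongest intronic site of Mybpc1 and the row of sites along Myom3. The small sites of replicate 1 alone at the 3′ part of Ttn can also be seen.

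All 7 genes had at least 1 gene-body site in both libraries, against 37.1% of all protein-coding genes, and all 7 had a distal site, against 74.2%. Gene length bears on the first count: of genes at least as long as Mybpc2, 62.4% had a gene-body site. Per 100 kb of gene, the shared gene-body sites numbered 12.5 for Myom3, 8.71 for Mybpc2, 5.27 for Myom2, 3.22 for Myom1, 1.15 for Mybpc1, 1.08 for Ttn and 0.827 for Neb. The value for Myom1 counts 4 sites, among them the one at the Myl12a and Myl12b starts. Without regions near any start Myom1 had 3, and with the starts of the comprehensive set 2. Among genes at least as long as Mybpc2 the densities per 100 kb ranked from the 41.8th percentile for Neb to the 98.2nd for Myom3. Mybpc2 was at 94.5 and Myom2 at 84.4. Mybpc2 is the shortest gene of that comparison, and its density rests on 2 sites. Over all protein-coding genes of 20 to 50 kb, the 75th percentile was 1 such site and the 90th was 3. Ttn and Neb, the giant genes, were slightly below the median of long genes (1.60 per 100 kb) when sites of both libraries were counted. The 7 genes pooled had 2.60 per 100 kb against 2.18 for long genes. The counts for Ttn and Neb depended on the library: Ttn had 3 shared sites but 13 in replicate 1 and 3 in replicate 2, and Neb had 2 shared sites but 8 and 4. In the permissive lists they had 6 and 9 shared sites. Of the 23 shared gene-body sites, 15 lay in introns, 5 touched coding exons and 3 lay outside the longest transcript. The FDR track gave a like order: bases with a false discovery rate of 0.001 or less made up 43.7 and 37.4 per kb in Myom3 and 30.8 and 38.5 in Mybpc2. In Ttn they made up 10.5 and 4.33 per kb and in Neb 7.92 and 4.57, against medians of 12.8 and 14.9 for genes at least as long as Mybpc2.

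**Figure D3:**
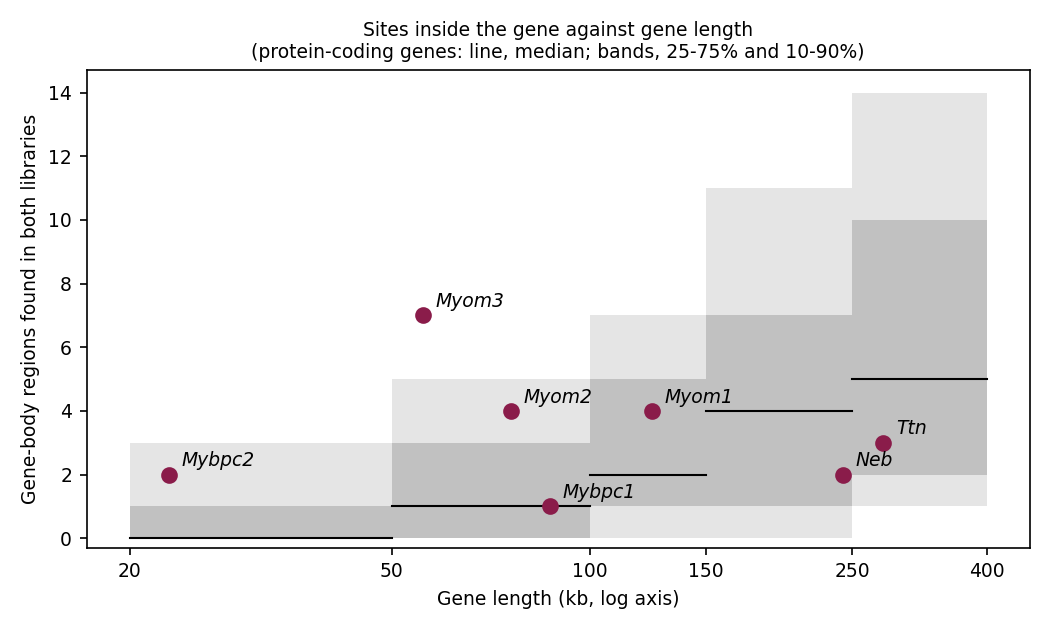
Gene-body regions found in both libraries are plotted against gene length in kb on a log axis for the 7 genes (points), over the median (line) and the 25-75% and 10-90% ranges (bands) of all protein-coding genes in 5 length classes. Myom3, with 7 regions, is above the upper band of its class, while Ttn, with 3, and Neb, with 2, are below the medians of theirs. The point of Myom1 counts the site at the Myl12a and Myl12b starts.

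Peaks at the 7 loci were shared between libraries unevenly. Of 87 peaks in replicate 1, 58 (66.7%) overlapped a peak of replicate 2, against 79.2% of all peaks. Of 61 peaks in replicate 2, 57 (93.4%) overlapped a peak of replicate 1, against 73.9%. Replicate 2 thus added little to what replicate 1 listed at these loci, although genome-wide it had more peaks. Part of the surplus of replicate 1 was a group of peaks with a signal under 0.4: 12 of the 87 (13.8%), against 3.70% of all its peaks. In replicate 2 there was 1 such peak among the 61 (1.64%), against 12.7% of all.

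Those 12 low peaks fell at 2 of the loci. Ttn held 7, with signals from 0.106 to 0.385, of which 5 lay in exons, 3 of them coding (exons 292, 295 and 299) and the others in the noncoding part of the last exon, 347. None of the 7 had a peak in either list of replicate 2. The one at chr2:76704201-76704380 reached a false discovery rate of 1.73e-25 in replicate 1 with a signal of 0.385, while the main Ttn promoter site reached 6.94e-28 with 3.73. A strong FDR at Ttn was therefore not always tied to a high signal. The remaining 5 lay next to each other 36.5 to 38.7 kb downstream of the Mybpc2 start (chr7:44485921-44488300), with signals from 0.245 to 0.351, and replicate 2 listed none of them either. Leaving out peaks under 0.4 raised the mean share of overlapped peaks from 80.1% to 84.7%, an alternative chosen after seeing the data.

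At the 57 shared regions the signal of replicate 1 was compared with that of replicate 2 as a log2 ratio less the genome-wide median, since signals in replicate 1 were 1.55 times those of replicate 2 at the median shared region. The SD of this relative log2 ratio over all 63851 shared regions was 0.67. The 57 regions had a median of 0.39, and 42 of them were above 0. Relative to the median ratio of regions at annotated starts, their median was 0.21. Whether the 57 differ from other regions was not tested. By gene the medians ran from 0.09 for Ttn and 0.35 for Mybpc2 to 0.73 for Myom2 and 0.91 for Mybpc1. Beyond 1 log2 unit in either direction there were 9 regions of 57, against 14.0% of all shared regions: 6 had relatively more signal in replicate 1 and 3 in replicate 2. The 3 were the site in intron 43 of Ttn at -1.40, a distal site of Mybpc2 with 1.18 and 1.66 at -1.12 (chr7:44485201-44485380), and a distal site of Myom2 at the start of BB014433 with 1.73 and 2.92 at -1.39 (chr8:15042961-15043120). Only these, the Myom3 site at exon 28 and another distal site of Mybpc2 (2.10 and 2.46, chr7:44561141-44561320) had a higher raw signal in replicate 2.

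**Figure D4:**
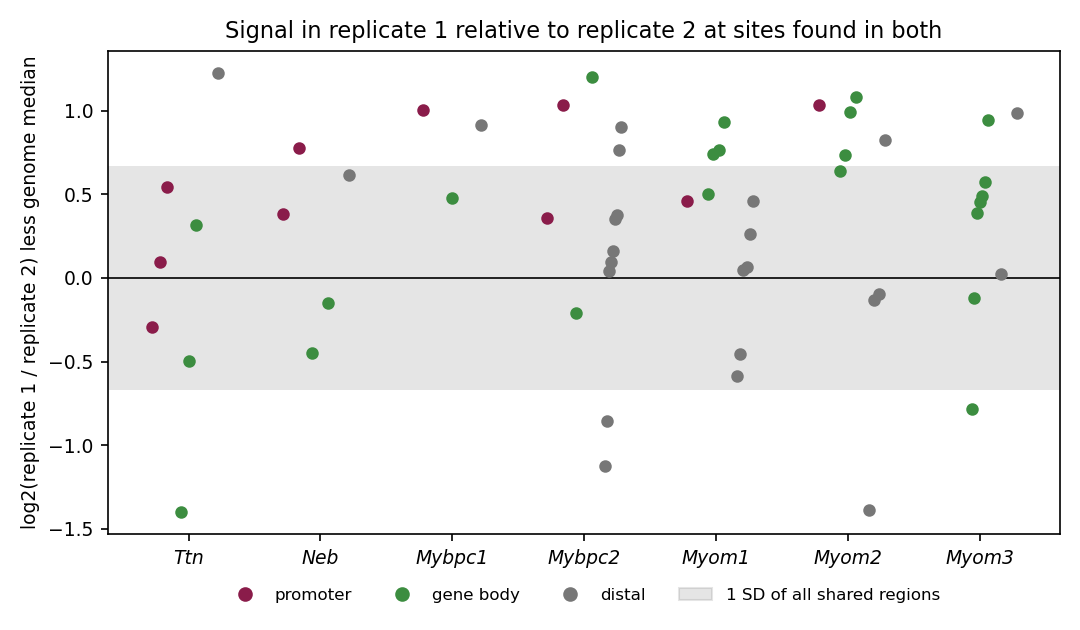
Each point is 1 of the 57 shared regions, placed by gene and class, with the log2 ratio of replicate 1 to replicate 2 less the genome median on the vertical axis and a grey band for 1 SD (0.67) of all shared regions. All 3 points of Mybpc1 are above 0, while Ttn runs from -1.40 to 1.23.

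Footprints at these loci had a density near that of all peaks. There were 213 and 201 footprints touching strict peaks of the 7 genes, 13.3 and 16.1 per kb of peak, against 14.2 and 15.2 over all peaks. In the 57 shared regions 12.9% of bases lay in footprints of both libraries, and the share was 12.9% over all shared regions too. The site at exon 28 of Myom3 had 8 and 5 footprints, of which 7 in replicate 1 overlapped one in replicate 2. By contrast, the Ttn site at chr2:76981801-76982000 and the outer Neb promoter site had at most 2 footprints in a library.

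Motifs were searched on both strands in windows of 200 bases at the middle of each shared region, with the share of all shared regions of the same class beside the count. Shared regions at starts of other genes, 13 distal and 1 in a gene body, are left out of the counts unless stated. A match describes letters, not a bound factor. The E-box CAGCTG, read by MyoD and its relatives, stood in 3 of the 10 promoter sites (14.6% of all sites at starts) and in 13 of the 33 sites away from starts (28.0%). GGAATG, read by TEAD factors, stood in 3 of 10 (7.55%) and 7 of 33 (13.3%). The GC box GGGCGG was in 3 of 10 promoter sites, against 54.1% of all sites at starts, and in 4 of the 33 others (10.7%). With the sites at starts of other genes included, 24 sites lay at starts. Of these, 11 held the GC box, 5 the E-box and 5 the TEAD motif. TATAAA was in 2 of 10 (2.83%) and 1 of 33 (5.13%), and TGANTCA (AP-1) in 0 and 1 (3.57% and 10.2%). The MEF2 motif, TCAAGGTCA (ERR) and the NFI motif, TTGGC and GCCAA 5 bases apart, were in none of these windows, and 0.971% and 2.36% of all windows held the MEF2 motif. All windows held the ERR motif in 0.136% and 0.270% and the NFI motif in 0.0363% and 0.110%. The CArG box of SRF was in 1 of 10 (0.739%) and 1 of 33 (0.923%). With so few windows, counts of this size have a wide margin.

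Motif matches were also set against the footprints. The same counts were not made over all shared regions of the genome, so whether those below are low or high is not known. Over the whole shared regions there were 25 E-box matches, of which 8 touched a footprint in both libraries, and 16 TEAD matches, of which 4 did. Of 24 GC box matches 13 did. In the printed sequences, the GC box at positions 161 to 166 of the Ttn-204 sequence (CCGCCC, opposite strand) and that at 92 to 97 of the Mybpc1 intron 1 sequence lay wholly in capitals. The E-box at 74 to 79 of the Neb-203 sequence had no base in footprints of both libraries, and neither did the GC box at 146 to 151 of the Mybpc2 promoter sequence. The Myom3 sequence from exon 28 had an E-box at 68 to 73 wholly in capitals, followed by a match to the CTCF motif at 89 to 102, CCACCAGGTGGCGC, also wholly in capitals.

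CTCF is a zinc-finger protein that marks boundaries of chromatin loops. The CTCF motif was found in 2 of the 33 windows away from starts, against 7.34% of all such windows: the Myom3 site and the distal Mybpc2 site at chr7:44527581-44527760. Their relative log2 ratios were -0.78 and 0.16. Over all 3068 shared regions away from starts with that motif the median was -1.07, and 98.0% had relatively more signal in replicate 2, against -0.06 and 54.1% without the motif. The Myom3 site was thus on the side of most such regions and the Mybpc2 site was not. A shortened core of the motif, CCACNAGG, chosen after the sequences were seen, stood also in the Ttn-204 promoter site (CCACTAGG) and the Ttn site at exon 8 (CCACCAGG). At both Ttn sites all 8 bases lay in footprints of each library, and the relative ratios were -0.30 and -0.50. At Mybpc2 the core was in the start site and in the intron 1 site, with ratios of 1.03 and 1.20, and at most 4 of the 8 bases were in footprints. Over all shared regions away from starts, 9.64% held the core, with a median ratio of -0.79, and over those at starts, where the Ttn-204 site and the Mybpc2 start site belong, 4.88% did, with a median of 0.04.

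The other genes of the Z-disc, titin-associated and M-band machinery were taken from a list of 45, of which 44 were found by symbol. Of these, 37 (84.1%) were open in both libraries, 3 in one library and 4 in neither. Over all protein-coding genes 61.7% were open in both, and of those at least 23.0 kb long 77.2% were. The 44 had a median promoter percentile of 49.9, against 50.1 over all genes. The list was chosen with results of these data known. Its highest were Actn3, the fast-fibre alpha-actinin of the Z-disc, with 9.59 and 5.13 (percentile 82.1), and the autophagy receptors Nbr1 with 11.6 and 4.35 and Sqstm1 with 11.4 and 3.15. Actn3 was thus close to Mybpc2 in both libraries. Genes open in neither were Mybpc3, the heart isoform of the family, Mybphl, Myoz2 and Csrp3, and those open in replicate 1 alone were Tcap, the titin cap of the Z-disc, Myoz3 and Lmod2.

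Relatives of the 7 by family gave these values. Mybph, of the myosin-binding protein family, had 3.25 and 0.748. The nebulin relatives Nebl, Nrap and Lasp1 had 1.04 and 0.482, 1.78 and 0.807, and 4.80 and 2.98. Nebl and Nrap were below Neb in both libraries, and Lasp1 was above it. The fast isoform gene Mybpc2 and the slow Mybpc1 were open in both libraries, and the cardiac Mybpc3 had no promoter peak.

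For each of the 7, the genes of most like pattern were taken by Euclidean distance over 6 percentiles, those of promoter signal, gene-body count and distal count in each library. Ttn was nearest to Gab2, with a distance of 7.65, and Lamp2, with 9.85. Neb was nearest to Asb5 (5.08) and Masp1 (5.30), Mybpc1 to St8sia5 (1.55) and Flrt2 (5.04), and Mybpc2 to Cdc37 (8.48) and Rab7 (9.50). Myom1 was nearest to Dchs1 (6.97) and Tekt5 (7.02), Myom2 to Dram1 (3.19) and Scrn1 (8.03), and Myom3 to Gm49358 (1.14) and Stab2 (1.95). None of the 7 was among the 3 nearest genes of another.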

How the data were processed

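For each of 2 DNase-seq libraries on mm10 the deposit holds a pair of peak lists, a list of footprints and a track of FDR values, all used unchanged. The signal of each peak is the authors' value, called on each library alone, per the deposited README. The FDR tracks, which the authors deposited as a q-value or p-value per run of bases, list bases under 0.05, and the footprint lists carry a constant threshold of 0.01. The aligner and both callers: not given in the sources used here. Read depth is unknown.

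From these files, overlapping strict peaks were merged into regions and assigned to genes of GENCODE M21 (basic set, 21911 protein-coding symbols). Percentiles are among all genes or all peaks of a library. Sequences came from the RefSeq genome GRCm38.p6, and 5 of the 7 genes had an entry in the RefSeq promoter table, which was not printed. Computation used Python 3.11.15, numpy 2.4.6 and pandas 2.3.3, and the gene assignment was tested on simulated data for 200 genes, with 0 differences from a brute-force count. The genes and lists were chosen with earlier results of these data known, and no test was run.

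All 7 genes are named, with their promoter regions and, by mean percentile, up to 5 gene-body and 3 distal regions found in both libraries. Other sarcomere genes are named where they are relatives by family, among the 3 highest or not open in both libraries. Some of the genes so selected, and 1 of the motifs searched, are not reported here. Regions outside this rule, such as the low peaks, were singled out after their values were seen. Alternatives were the permissive list, peaks at or above the median signal, windows of 250 and 2500 bases around starts, limits of 20 and 100 kb for distal regions, a reciprocal overlap of 50%, and each library alone.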

Additional observations from a re-analysis of the deposited data

How the results depend on the processing

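The count of open promoters among the 7 genes stayed within 5 to 7 under every alternative run, with 5 for windows of 250 bases and for peaks at or above the median signal, and 7 for windows of 2500 bases and for the starts of the comprehensive gene set. Shared gene-body sites numbered 23 as reported, 45 in the permissive lists and 13 with peaks below the median signal left out. Shared distal sites numbered 24 as reported, 15 above the median signal, 7 within 20 kb, 55 within 100 kb, 11 without regions near any start and 42 with the starts of the comprehensive set, which was chosen after seeing the data. Footprints per kb of peak went from 14.7 to 12.4 in the permissive lists. The median relative log2 ratio went from 0.39 to 0.42 in the permissive lists and to 0.21 relative to regions at starts. In these alternatives the list, the window, the gene set or the reference of the ratio was itself changed. In each library alone, open promoters were 6 and 6 and the median promoter percentile 54.1 and 47.3. Gene-body sites were 44 and 27, distal sites 32 and 24 and footprints per kb 13.3 and 16.1. The share of overlapped peaks, 66.7% and 93.4%, needs both libraries and is the value given above for each. Sites of 1 library cannot be fewer than the shared sites, so these counts do not check the shared counts. Of the 44 gene-body sites of replicate 1, 13 were at Ttn and 8 at Neb. By gene, 13 of 49 promoter percentiles, 15 of 49 gene-body counts and 27 of 63 distal counts moved by more than their margin. The margin of a percentile was its SD between the libraries, and that of a count was a fixed fold change. Percentiles of a single library cannot move by more than that SD, and the SD of Myom3 was only 0.003. The tallies are therefore no measure of stability. No paired analysis was possible because there is a single group. With 2 libraries and no known read depth, the absence of a peak is not the absence of open chromatin.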

Other observations

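Over the whole genome, the relative log2 ratio of the libraries differed by motif in the shared regions away from starts. Regions with the E-box CAGCTG had a median of 0.10, against -0.23 without it, and 42.9% against 63.0% had relatively more signal in replicate 2. Regions with the GC box had 0.11 against -0.15, those with TGANTCA (AP-1) 0.03 against -0.14, and those with the TEAD motif -0.07 against -0.13. At starts, regions with the CTCF motif had -0.71 against 0.18. These values were computed after the sequences at Ttn and Myom3 were seen, and no test was run on them.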
